A study of Mus musculus with 29 samples.

Results

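The 8 genes described here encode proteins of the phagosome and lysosome membrane and proteins that activated macrophages carry on their surface, release or use to handle actin: Cd68, Cd63, Cd9, Cd52, Lgals3, Lyz2, Timp2 and Capg. They were taken by symbol from the count table, where all 8 were among 22327 genes, and all 8 were among the 16074 genes that passed the filter on low counts. Phagocytes take up debris into phagosomes, which mature by fusing with late endosomes and lysosomes. The membranes of these organelles are rich in heavily glycosylated proteins such as CD68 and in tetraspanins such as CD63 and CD9, small proteins that cross the membrane several times and gather partner proteins around them. Microglia, the resident macrophages of the brain, are known to raise several of these genes where they surround amyloid plaques. Galectin-3 (Lgals3), lysozyme (Lyz2) and TIMP2 are released proteins, and CAPG caps actin filaments inside the cell.

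Ribosomes carrying a tag were pulled down with an antibody to GFP from cortex of mice aged 6 months, and the RNA on them was sequenced (TRAP, translating ribosome affinity purification), giving 29 libraries in 7 groups. All mice carried Cx3cr1CreErt2/+, which switches on the eGFP-L10a ribosomal tag in microglia and in other macrophages that use Cx3cr1, and all received 6 doses of 100 mg/kg tamoxifen at 4 to 6 weeks of age. The study asked how the integrated stress response, in which phosphorylated eIF2α lowers general translation, shapes microglia. TRAP mice (n = 5) carried Eef1a1LSL.eGFPL10a/+ and received tamoxifen alone. The 5xFAD TRAP mice (n = 4) carried the same tag with the 5xFAD transgenes, which cause amyloid plaques, and also received VEGF (1 µg/kg) and ASV (5 mg/kg) for 4 weeks. Eif2A mice (n = 4) and 5xFAD Eif2A mice (n = 3) carried Eif2s1A/A and Tg(Eif2s1) and received tamoxifen alone. The sample labels give both Eif2A groups the tag, whereas the series description leaves it out of their genotype. Mice with Eef1a1LSL.NS3.eGFPL10a.iPKR/+, in which the tag is joined to NS3 and an inducible eIF2α kinase, received VEGF with vehicle (iPKR vehicle, n = 4) or VEGF with ASV (iPKR ASV, n = 5) for 4 weeks at these doses, starting at 4 to 5 months of age. The 5xFAD iPKR mice (n = 4) carried this construct and the 5xFAD transgenes and received VEGF and ASV. In both 5xFAD groups given VEGF and ASV the treatment started at 5 months, so the labelled starting age also differs between 5xFAD iPKR and iPKR ASV. Labels give each library a batch (1 or 2), and both Eif2A groups lie in batch 1. Nothing in the labels states that each library came from its own mouse, so p-values measure the spread between these samples.

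The start regions of the genes are shown because the 8 genes moved together. Of the 8 genes, 7 had a RefSeq promoter (GRCm38.p6), and Cd52 had none in the table. In the 250 bases before each start 3 motifs were searched on both strands: the E-box CACGTG, which factors of the lysosomal gene programme bind, the AP-1 motif TGANTCA, and GAGGAAGT, a core sequence of the myeloid factor PU.1. Only Cd68 held a match. Its window (chr11:69666171-69666420, minus strand) held 2 AP-1 matches, shown in capitals, whose first bases lie 149 and 24 bases before the start. Among 32851 promoters 6.75% held at least 1 AP-1 match and 0.338% at least 2, while 6.02% held the E-box and 2.44% GAGGAAGT. Cd9 and Lyz2, the 2 genes with the highest levels per length in TRAP, are shown for comparison and held no match in their 250 bases. Of these windows the 219 bases (chr6:125494792-125495010, minus strand) and 201 bases (chr10:117282322-117282522, minus strand) that lie outside the GENCODE M21 gene are printed, without the bases nearest the start.
Cd68: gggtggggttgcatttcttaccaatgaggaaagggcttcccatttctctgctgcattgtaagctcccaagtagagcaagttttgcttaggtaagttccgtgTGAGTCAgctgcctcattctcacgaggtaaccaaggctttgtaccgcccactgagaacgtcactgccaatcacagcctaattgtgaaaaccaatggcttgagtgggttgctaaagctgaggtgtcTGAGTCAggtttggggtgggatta
Cd9: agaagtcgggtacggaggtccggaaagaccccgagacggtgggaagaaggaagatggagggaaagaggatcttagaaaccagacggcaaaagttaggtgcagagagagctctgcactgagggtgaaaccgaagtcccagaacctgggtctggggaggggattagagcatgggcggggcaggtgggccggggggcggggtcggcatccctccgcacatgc
Lyz2: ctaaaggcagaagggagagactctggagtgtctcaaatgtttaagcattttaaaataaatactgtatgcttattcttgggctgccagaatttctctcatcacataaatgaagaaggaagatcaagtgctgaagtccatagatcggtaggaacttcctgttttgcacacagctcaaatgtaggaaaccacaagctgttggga
A match here describes letters and shows no binding.

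The shallowest library held 1.662 M counts and the deepest 31.998 M (median 6.049 M). Levels are given as TMM-scaled CPM, that is, counts scaled to the library total and adjusted for composition. In the 16 libraries without the iPKR construct, 16 homeostatic microglial markers took 3.38% to 5.38% of counts, neuron markers 0.0561% to 0.409%, and markers of monocytes and neutrophils at most 0.000997%. Markers of border macrophages, which also use Cx3cr1, took 0.00964% to 0.0442% in TRAP and 0.0146% to 0.0187% in 5xFAD TRAP, and 0 of 8 of them were called in the 3 5xFAD comparisons; in iPKR ASV and 5xFAD iPKR they took 0.00117% to 0.00856% and 0.0015% to 0.0178%. The 13 iPKR libraries held 0.0762% to 1.77% of homeostatic markers and 0.471% to 3.46% of neuron markers. Neuron markers were richest in 5xFAD iPKR replicates 1 and 2 (3.06% and 3.46%) and iPKR ASV replicate 3 (2.16%). TRAP replicate 2 had Cx3cr1 at 17.0 CPM, against 616 to 720.0 CPM in the other TRAP libraries, although its Csf1r, at 2164 CPM, lay among theirs (2030 to 2392 CPM). In iPKR vehicle replicate 1 Cx3cr1 had no count. In bulk libraries such as these, fewer cells of a type and less RNA per cell cannot be told apart.

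All 8 genes had higher estimates in 5xFAD libraries than in their comparison groups on each of the 3 backgrounds, and Lgals3 and Capg had the highest fold changes on every one. In 5xFAD TRAP against TRAP 4 of 8 rose (Cd63, Cd9, Lgals3 and Capg) by the quasi-likelihood test of edgeR with Benjamini-Hochberg adjustment, where 0.709% of all genes rose. The median log2 fold change of the 8 was 1.27, against -0.06 over all genes tested. All log2 fold changes and adjusted p values below come from this model unless another is named, and no sample is shared between the 3 comparisons. In 5xFAD Eif2A against Eif2A 6 of 8 rose, all but Cd52 and Lyz2, against 2.08% of all genes, with a median of 1.93 beside -0.06. In 5xFAD iPKR against iPKR ASV 7 of 8 rose, all but Cd52, against 1.54% of all genes, with a median of 2.42 beside 0.00. In the first of these comparisons 5xFAD TRAP mice had also received VEGF and ASV, which TRAP mice had not, so the transgenes and the treatment cannot be told apart there.

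**Figure D1:**
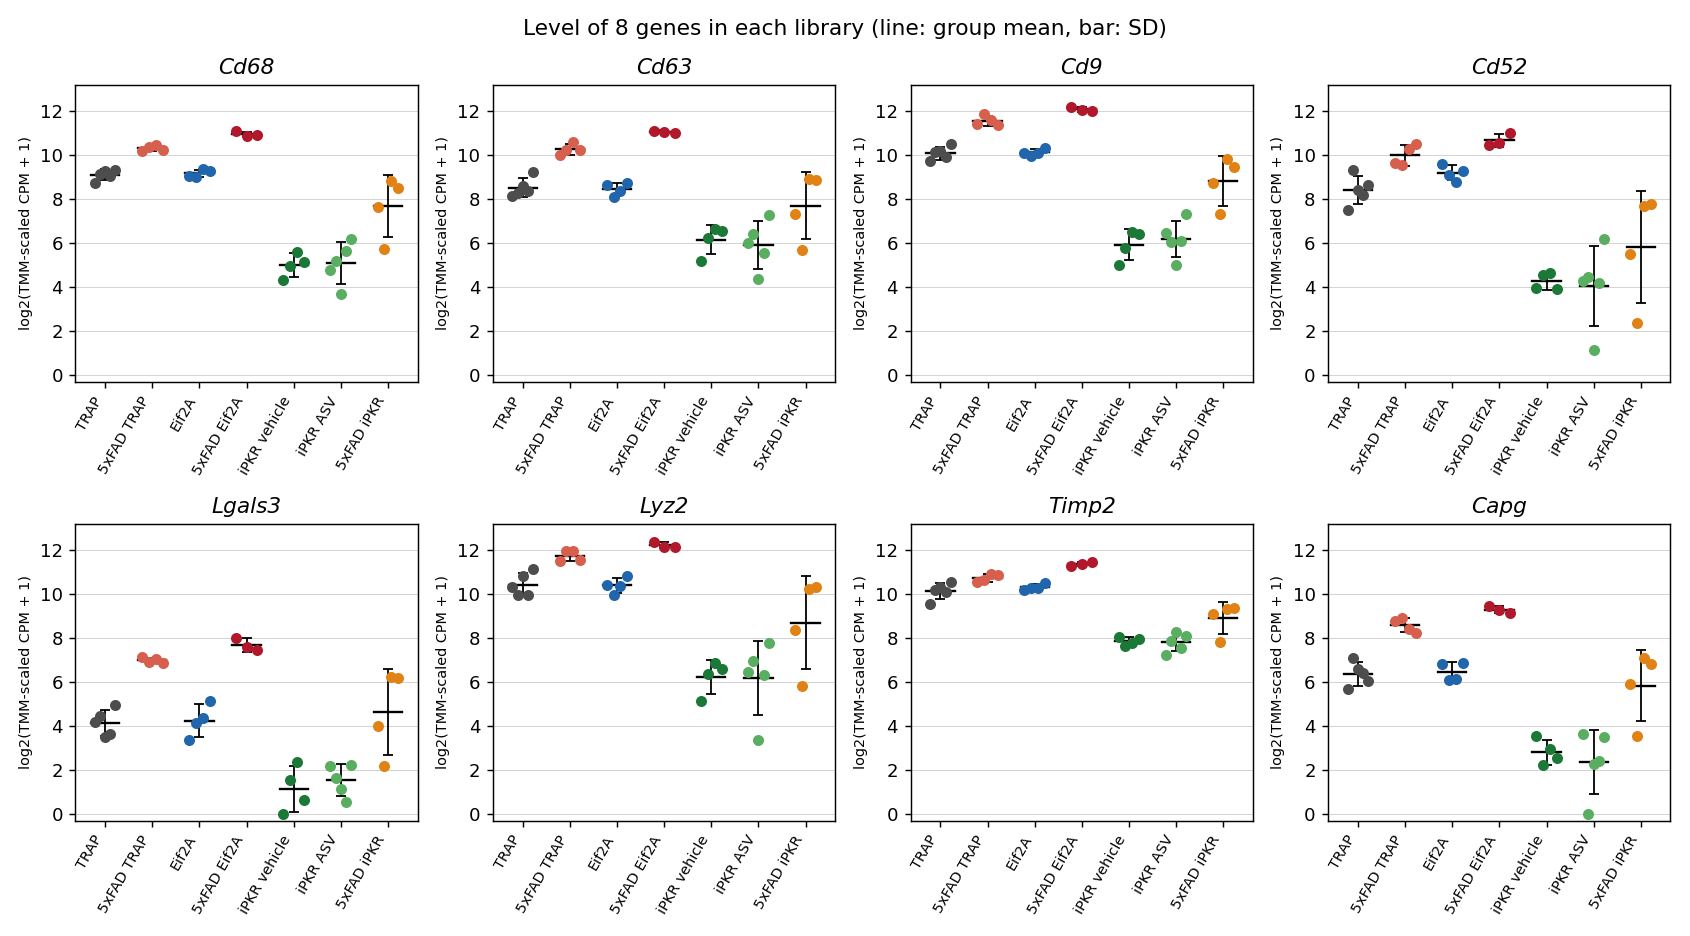
Level of each gene as log2(TMM-scaled CPM + 1) on the vertical axis, with 1 point per library, the group mean as a line and the SD as a bar. The 3 5xFAD groups lie above their comparison groups, iPKR vehicle and iPKR ASV lie lowest, and 5xFAD iPKR replicate 2 is the lowest library of its group for all 8 genes.

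In 5xFAD TRAP against TRAP the adjusted p of Cd63, Cd9 and Capg lay between 0.03214 and 0.043, and that of Lgals3 was 0.008248. Group ranges did not overlap for 7 of 8 genes (all but Timp2), against 5.35% of all genes in either direction. A fit of these 2 groups alone called 7 of 8 (beside 3.85% of all genes higher), as did the fit of all groups without the 3 libraries richest in neuron markers (1.27%). The count dropped to 2 with no low-count filter (0.376%), to 2 without the sex term (0.572%), and to 1 with sex taken from Y-linked reads (0.535%). Those reads differed from the labelled sex in 8 of 29 libraries: 4 in iPKR ASV, 2 in 5xFAD iPKR, 2 in Eif2A and 0 in TRAP and 5xFAD TRAP. The count was 0 to 2 by limma-trend on log2 RPKM with 3 pseudocounts (0.448% to 0.871%). Leaving out 1 library at a time gave 0 to 4 calls (beside 0.31% to 0.683%): 0 without 5xFAD TRAP replicate 1, 1 without 5xFAD TRAP replicate 2 or without TRAP replicate 1, 3, 4 or 5, 2 without TRAP replicate 2, and 3 without 5xFAD TRAP replicate 3. Within batch 1 alone 4 of 8 were called (beside 1%), while batch 2 holds 1 TRAP library.

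Cd68, a glycoprotein of the late endosome and lysosome membrane that is widely used to mark phagocytic microglia, stood at 423, 567, 629, 525 and 649 CPM in TRAP and at 1179, 1334, 1425 and 1213 CPM in 5xFAD TRAP. It was at 535, 518, 660.2 and 614 CPM in Eif2A and at 2172, 1910 and 1940 CPM in 5xFAD Eif2A. The highest library without 5xFAD lay below the lowest with it in both pairs, and in 5xFAD Eif2A against Eif2A this held for 8 of 8 genes, beside 21.3% of all genes. The log2 fold change was 1.00 ± 0.33 SE in 5xFAD TRAP against TRAP (adjusted p = 0.2099). In 5xFAD Eif2A against Eif2A Cd68 rose by 1.79 ± 0.37 SE on the log2 scale (adjusted p = 0.004381). In iPKR ASV its libraries had 26.7, 35.1, 12.1, 49.8 and 71.6 CPM, and in 5xFAD iPKR 202, 52.1, 460.2 and 362 CPM. Only 5xFAD iPKR replicate 2 fell within the iPKR ASV range, and Cd68 rose by 2.62 ± 0.35 SE (adjusted p = 6.106e-05).

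The tetraspanin Cd63 sits in the membrane of late endosomes, lysosomes and exosomes. Its TRAP libraries had 280, 314, 382, 336 and 610.0 CPM and its 5xFAD TRAP libraries 1024, 1204, 1561 and 1195 CPM. Levels of 400.5, 274, 329 and 426 CPM in Eif2A stood against 2235, 2147 and 2039 CPM in 5xFAD Eif2A. TRAP replicate 5 was the highest library without 5xFAD and still below every 5xFAD TRAP library. Cd63 rose by 1.56 ± 0.38 SE in the plain tag comparison (adjusted p = 0.043) and by 2.64 ± 0.43 SE on the Eif2A background (adjusted p = 0.000388). In iPKR ASV it had 63.5, 84.7, 19.4, 46.2 and 157 CPM, and in 5xFAD iPKR 161, 50.9, 477 and 468 CPM. Replicate 2 of 5xFAD iPKR again lay among the iPKR ASV libraries, and replicate 1 was barely above their highest. The rise was 1.58 ± 0.40 SE (adjusted p = 0.03343), and it was not called without iPKR ASV replicate 4 or without 5xFAD iPKR replicate 1, 3 or 4, with adjusted p up to 0.1084.

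Cd9, a second tetraspanin, found on the cell surface and on vesicles, was among the most abundant of the 8. TRAP libraries had 849, 1124, 1184, 955 and 1459 CPM, and 5xFAD TRAP libraries 2750, 3756, 3098 and 2644 CPM. In Eif2A Cd9 was at 1105, 988, 1108 and 1293 CPM, and in 5xFAD Eif2A at 4756, 4331 and 4073 CPM. No library overlapped between the groups of either pair. The rises were 1.38 ± 0.32 SE (adjusted p = 0.03214) and 2.00 ± 0.36 SE (adjusted p = 0.001266). iPKR ASV libraries had 88.1, 65.7, 31.5, 66.7 and 161 CPM against 423, 157, 916 and 701 CPM in 5xFAD iPKR, a rise of 2.51 ± 0.34 SE (adjusted p = 6.106e-05). Replicate 2 of 5xFAD iPKR lay just below the highest iPKR ASV library, replicate 5, and the other 3 were above it. Cd9 overlaps the antisense gene Gm26728, which has its own row, and since the strand setting of the counting is not given in the sources used here, their reads cannot be told apart.

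Cd52, a short glycoprotein anchored to the surface of leukocytes and microglia, was not called in any of the 3 5xFAD comparisons. Its TRAP libraries spread from 182 to 636 CPM (182, 636, 337, 296 and 398), and 5xFAD TRAP had 806, 747, 1234 and 1479 CPM. In Eif2A there were 777, 558, 440.3 and 629.9 CPM, and in 5xFAD Eif2A 1432, 1491 and 2060 CPM. The groups did not overlap in either pair, but Cd52 had the widest relative spread of the 8 genes in TRAP, with a coefficient of variation of 45.5% beside 45.1% for Lgals3. Log2 fold changes were 1.07 ± 0.58 SE (adjusted p = 0.5447), 1.47 ± 0.64 SE (adjusted p = 0.2641) and, in 5xFAD iPKR against iPKR ASV, 1.88 ± 0.61 SE (adjusted p = 0.1296). In iPKR ASV Cd52 was at 18.4, 20.95, 1.18, 17.1 and 72.8 CPM, and in 5xFAD iPKR at 44.7, 4.14, 206 and 217 CPM. Without the 3 libraries richest in neuron markers it was called in all 3 comparisons, with adjusted p of 0.03925, 0.01312 and 0.0008815. The annotated Cd52 gene overlaps Crybg2 on the other strand.

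Among the released proteins, Lgals3 had the highest estimates. Galectin-3 binds sugar chains with β-galactoside, and gathers at damaged lysosomes as well as outside the cell. It was scarce in TRAP, at 16.9, 20.96, 10.3, 11.4 and 30.2 CPM, and stood at 139, 121, 131 and 115 CPM in 5xFAD TRAP. Eif2A libraries had 9.18, 16.6, 19.7 and 34.3 CPM and 5xFAD Eif2A libraries 258, 192 and 173 CPM. The lowest 5xFAD library in each pair was more than 3 times the highest library of the comparison group. Lgals3 rose by 2.72 ± 0.54 SE (6.57-fold, adjusted p = 0.008248) and by 3.38 ± 0.61 SE (10.4-fold, adjusted p = 0.001276). In iPKR ASV it had 3.51, 2.08, 1.18, 0.449 and 3.75 CPM, from 4 to 29 counts a library, and in 5xFAD iPKR 14.9, 3.55, 73.2 and 70.9 CPM. It rose by 4.01 ± 0.67 SE (16.1-fold, adjusted p = 0.0007661), with 5xFAD iPKR replicate 2 again inside the iPKR ASV range. Within batch 1, which holds 5xFAD iPKR replicates 1 and 2, the log2 fold change was 2.13 (adjusted p = 0.1222).

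Lyz2, the lysozyme of macrophages, which cuts bacterial cell walls, had the highest level per kilobase of the 8 genes. TRAP libraries had 1269, 977, 1834, 989 and 2235 CPM, and 5xFAD TRAP libraries 2919, 3959, 3979 and 3025 CPM. In Eif2A Lyz2 was at 1354, 1008, 1317 and 1802 CPM, and in 5xFAD Eif2A at 5297, 4472 and 4581 CPM. Both pairs of groups stood apart, yet neither passed the test: the log2 fold changes were 1.16 ± 0.52 SE (adjusted p = 0.4368) and 1.86 ± 0.58 SE (adjusted p = 0.08165). DESeq2 called the second (adjusted p = 0.02443). In iPKR ASV the libraries had 86.3, 124, 9.13, 79.2 and 217 CPM, and in 5xFAD iPKR 333, 55.6, 1200 and 1286 CPM. Replicate 2 was the only library of 5xFAD iPKR below the highest of iPKR ASV, and Lyz2 rose by 2.32 ± 0.57 SE (adjusted p = 0.02884). The call was lost without iPKR ASV replicate 4 or without 5xFAD iPKR replicate 3 or 4, with adjusted p up to 0.08198. The neighbouring copy Lyz1 had 8.22 CPM or less in every library, and how the counting split reads that fit both copies is not given in the sources used here.

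Timp2, a secreted inhibitor of matrix metalloproteinases, had the smallest differences. It stood at 755, 1152, 1264, 1083 and 1508 CPM in TRAP and at 1481, 1616, 1903 and 1874 CPM in 5xFAD TRAP, where the lowest library lay under the highest of TRAP. In Eif2A it was at 1145, 1231, 1249 and 1459 CPM and in 5xFAD Eif2A at 2484, 2673 and 2808 CPM, without overlap. The log2 fold change was 0.60 ± 0.23 SE in the first pair (adjusted p = 0.3081), and Timp2 rose by 1.13 ± 0.25 SE in the second (adjusted p = 0.008146). That call was lost without 5xFAD Eif2A replicate 2 or 3, with adjusted p up to 0.05316. iPKR ASV libraries had 151, 230.1, 304, 186 and 273 CPM, and 5xFAD iPKR libraries 538, 226, 638 and 666 CPM, a rise of 1.01 ± 0.23 SE (adjusted p = 0.01508). It was not called without 5xFAD iPKR replicate 1, 3 or 4, with adjusted p up to 0.05672. Timp2 overlaps Cep295nl, which lies on the same strand and has no row of its own in the table.

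Capg, which caps the fast-growing ends of actin filaments and acts inside the cell, was at 49.9, 136, 94.7, 83.9 and 65.8 CPM in TRAP and at 434, 482, 336 and 303 CPM in 5xFAD TRAP. Eif2A libraries had 111, 67.0, 68.9 and 115 CPM, and 5xFAD Eif2A libraries 705, 609.6 and 566 CPM. Each of these 7 libraries with 5xFAD was more than 2 times the highest library of its comparison group. Capg rose by 2.19 ± 0.52 SE (adjusted p = 0.03582) and by 2.88 ± 0.59 SE (adjusted p = 0.004102). In iPKR ASV it was at 11.4, 0, 3.83, 4.38 and 10.3 CPM, where the count of 0 in replicate 2 allows up to 0.565 CPM (3 counts, counting error only). 5xFAD iPKR libraries had 58.4, 10.7, 135 and 110.2 CPM, and the rise was 3.60 ± 0.59 SE (adjusted p = 0.0006849). Replicate 2 of 5xFAD iPKR, at 10.7 CPM, lay below the highest iPKR ASV library, so these 2 groups overlapped.

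**Figure D2:**
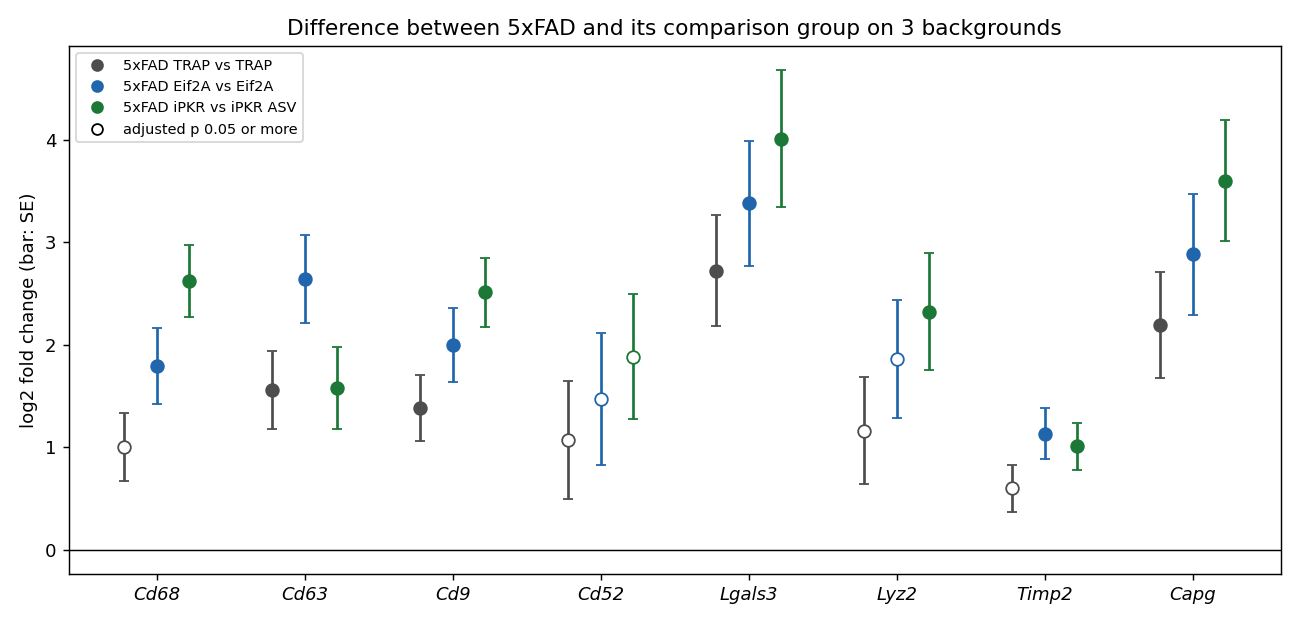
Log2 fold change of each gene (vertical axis) between 5xFAD libraries and their comparison group on 3 backgrounds, with the SE as a bar and open points for an adjusted p of 0.05 or more. All 24 estimates are above 0, with Lgals3 and Capg highest and Timp2 lowest, and Cd52 is open on all 3 backgrounds.

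The 7 calls in 5xFAD iPKR against iPKR ASV rested on groups that overlapped for all 8 genes, whereas 2.46% of all genes did not overlap there. A fit of these 2 groups alone called 0 of 8, beside 0.0668% of all genes higher. Without the 3 libraries richest in neuron markers 8 of 8 were called, beside 3.97%. That fit kept only replicates 3 and 4 of 5xFAD iPKR, both in batch 2 and labelled female, which were its highest libraries for all 8 genes. Without 5xFAD iPKR replicate 3 or 4 there were 4 of 8 each, beside 1.02% and 1.22%. Batch 1 alone gave 2 calls (Cd68 and Cd9), beside 1.89%. Labelled sex, a term of the model, differed from the Y-linked reads in 4 iPKR ASV libraries and 2 5xFAD iPKR libraries. In batch 2, which was not tested alone, the 2 libraries of 5xFAD iPKR were above both of iPKR ASV for every gene, as with Cd68 at 460.2 and 362 CPM against 49.8 and 71.6 CPM. Homeostatic markers took 0.675%, 0.17%, 1.77% and 1.59% of counts in 5xFAD iPKR and 0.265%, 0.422%, 0.0762%, 0.405% and 0.882% in iPKR ASV, and 4 of the 16 tested rose. Replicates 3 and 4 of 5xFAD iPKR lay above every iPKR ASV library, whereas replicate 2 lay above iPKR ASV replicate 3 alone.

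Because these markers moved with the group, each gene was also set against them, as its counts per 100 counts of the 16 homeostatic markers in the same library. For Cd68 this ratio was 2.63 to 3.11 in 5xFAD iPKR and 0.999 to 1.72 in iPKR ASV, so that all 4 libraries of the first group, replicate 2 included, lay above all 5 of the second. The same held for Cd9 (5.09 to 9.41 against 1.87 to 4.34), Lgals3 (0.212 to 0.514 against 0.0155 to 0.173) and Capg (0.637 to 0.905 against 0 to 0.562). Thus 4 of 8 genes stood apart and higher on this ratio, against 0.0933% of all genes. Cd63 (2.39 to 3.39 against 1.59 to 3.13), Cd52, Lyz2 and Timp2 overlapped. When edgeR's size factors were taken from these markers, Cd68, Cd9, Lgals3, Lyz2 and Capg were called higher (adjusted p from 0.003046 to 0.04347), 5 of 8 beside 0.193% of all genes, with the median of all genes shifted to -1.35. With the same factors 1 of 8 was called in 5xFAD TRAP against TRAP (Cd63, beside 0.131% of all genes) and 4 of 8 in 5xFAD Eif2A against Eif2A (Cd68, Cd63, Cd9 and Lgals3, beside 0.218%). In the iPKR pair Timp2 then had a log2 fold change of -0.59 (adjusted p = 0.2541). Without the construct all 8 genes stood apart and higher on the ratio both in 5xFAD TRAP against TRAP and in 5xFAD Eif2A against Eif2A, against 1.32% and 3.8% of all genes. The marker list was chosen with earlier results of these data known, and its 16 genes include some, such as Trem2 and Ctss, that are themselves known to respond to plaques.

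**Figure D3:**
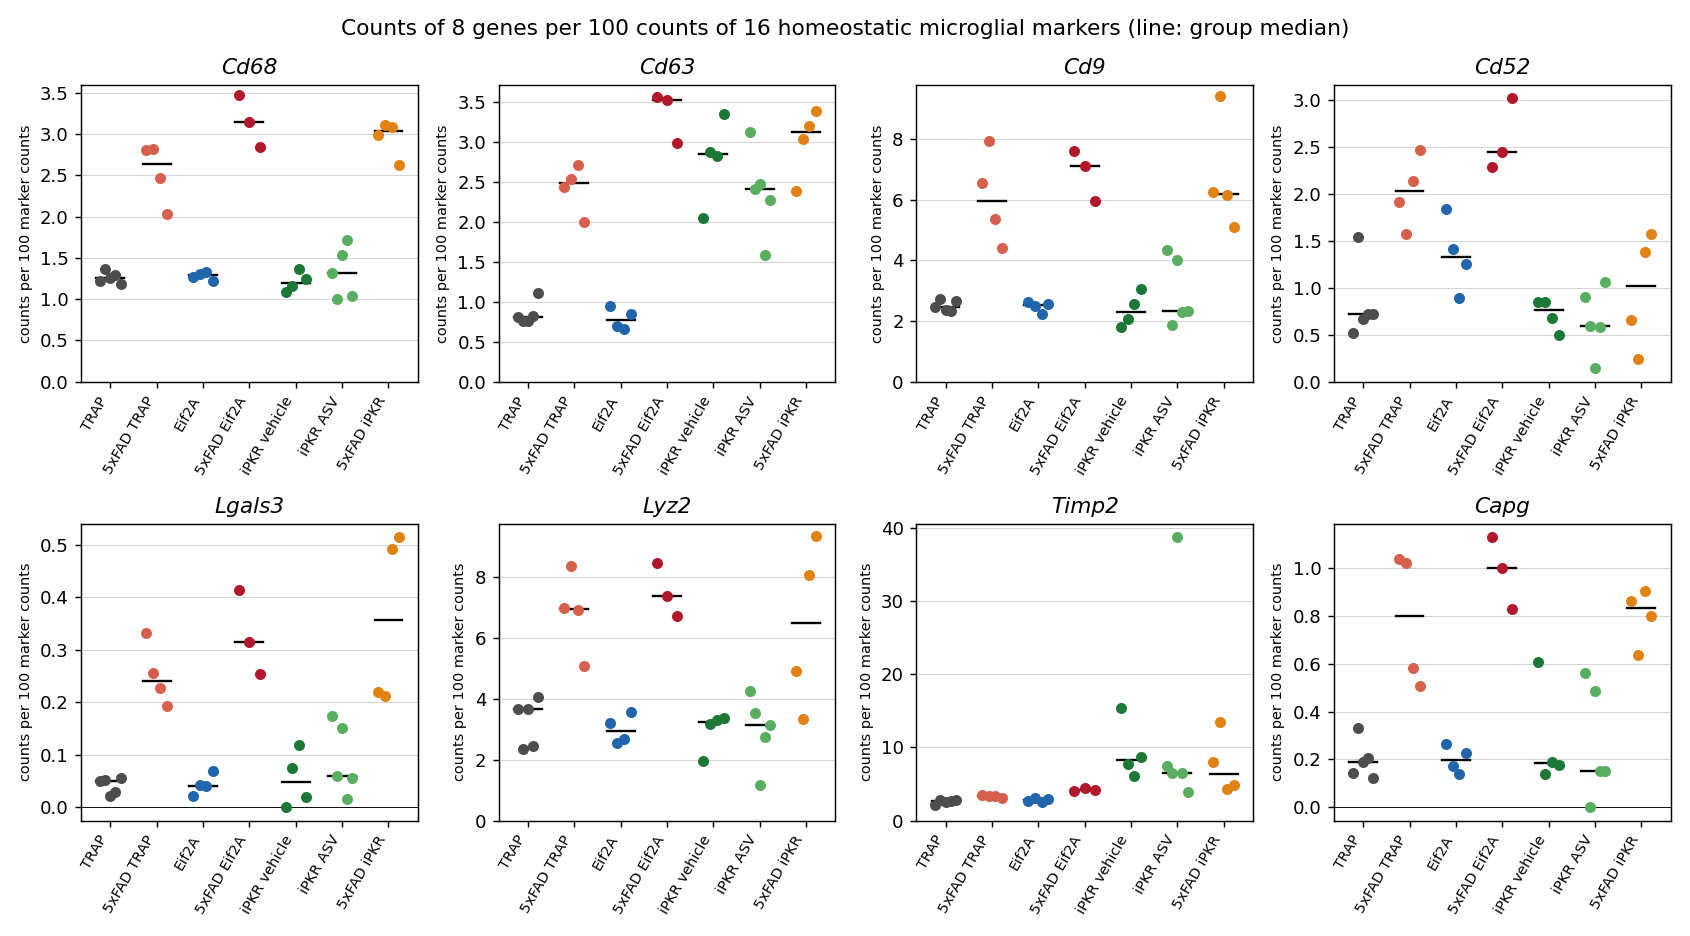
Counts of each gene per 100 counts of the 16 homeostatic microglial markers (vertical axis, a scale of its own in each panel), with 1 point per library and the group median as a line. For Cd68 the median is 1.26 in TRAP, 1.20 in iPKR vehicle and 3.04 in 5xFAD iPKR, while Cd63 and Timp2 are higher in iPKR vehicle (2.85 and 8.22) than in TRAP (0.808 and 2.66).

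The Eif2A allele without 5xFAD was compared with TRAP to see what the allele does by itself. No gene of the 8 was called, nor was any gene of the 16074 (0% called, and 912 genes with an unadjusted p under 0.05, none of them among the 8). Log2 fold changes ran from 0.00 (Capg) to 0.88 ± 0.57 SE (Cd52, adjusted p = 0.909), and the ranges of the groups overlapped for all 8, where 3.94% of all genes stood apart. The TRAP libraries are the same as those above.

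In 5xFAD mice, the Eif2A group lay above the plain tag group for most of the 8 genes but none was called, where 0.168% of all genes were called in either direction. Estimates ran from 0.69 ± 0.26 SE for Timp2 and 0.69 ± 0.59 SE for Capg to 1.28 ± 0.67 SE for Cd52, with a median of 0.90 beside 0.03 over all genes. Unadjusted p was under 0.05 for 4 of the 8, and DESeq2 and the other fits of all 7 groups also called 0. The groups did not overlap for 7 of 8 genes (all but Cd52), against 13% of all genes. For Cd68 the 3 libraries of 5xFAD Eif2A had 1910 CPM or more and the 4 of 5xFAD TRAP 1425 CPM or less. A fit of these 2 groups alone called 4 of 8 (Cd68, Cd63, Cd52 and Timp2, adjusted p from 0.0008157 to 0.005065), where the same fit called 5.66% of all genes higher. On the marker ratio 3 of 8 stood apart and higher, against 1.09% of all genes. The 5xFAD TRAP mice had received VEGF and ASV and the 5xFAD Eif2A mice had not, so the allele and the treatment cannot be told apart.

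Whether 5xFAD had a different effect on the Eif2A background was tested as a difference between differences. All 8 estimates were positive, from 0.39 ± 0.85 SE (Cd52) to 1.08 ± 0.56 SE (Cd63), and 0 were called (every adjusted p was 1), beside 0.00622% of all genes. The same test for the iPKR background against the plain tag gave estimates from 0.01 ± 0.55 SE (Cd63) to 1.62 ± 0.49 SE (Cd68, adjusted p = 0.405), with 0 of 8 called beside 0.0373% of all genes. Without 5xFAD iPKR replicate 2 Cd68 was called in this second test (adjusted p = 0.0184, beside 0.567% of all genes higher), and without the 3 libraries richest in neuron markers Cd68 and Lyz2 were (adjusted p = 0.00344 and 0.04875, beside 1.45%). With size factors from the microglial markers the Cd68 estimate was 0.17, with the median of all genes shifted to -1.36. Over 14 alternative settings, these factors included and fits without 1 library aside, 0.17 was the lowest estimate of Cd68. Each other gene had a lowest estimate below 0, from -0.17 (Cd9) to -1.3 (Timp2). These tests do not show that the backgrounds respond alike.

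ASV against vehicle in iPKR mice, all of which had received VEGF, gave 0 of 8 calls beside 0.423% of all genes. Log2 fold changes lay between -0.19 ± 0.60 SE (Capg) and 0.38 ± 0.32 SE (Cd9). Vehicle libraries had Cd68 at 19.0, 30.3, 47.9 and 34.7 CPM, all within the range of the ASV libraries given above; ranges overlapped for all 8 genes, where 3.43% of all genes stood apart. Lyz2 was at 33.8, 82.6, 117 and 94.5 CPM with vehicle and Cd9 at 31.5, 53.8, 90.8 and 85.7 CPM, likewise within the ASV range. With 2.19 CPM on average for Lgals3 and 5.99 CPM for Capg in iPKR ASV, both rest on few counts. In iPKR vehicle replicate 1 Lgals3 had no count, which allows up to 0.836 CPM (3 counts, counting error only).

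The iPKR vehicle libraries held far less of all 8 genes than TRAP libraries, and the same was true of 5xFAD iPKR against 5xFAD TRAP. With TMM factors 8 of 8 fell in iPKR vehicle against TRAP, where 25.4% of all genes fell; with size factors from microglial markers Cd63 and Timp2 turned to higher, as given further on. The 8 had a median log2 fold change of -4.07 beside 0.17 over all genes. Log2 fold changes were -4.59 ± 0.69 SE for Cd52, -4.38 ± 0.62 SE for Lyz2, -4.37 ± 0.40 SE for Cd68 and -4.32 ± 0.38 SE for Cd9 (adjusted p from 1.113e-09 to 2.794e-06). Capg had -3.83 ± 0.62 SE and Lgals3 -3.51 ± 0.66 SE. Cd63 fell by 2.54 ± 0.41 SE, from 384 ± 132 to 76.1 ± 28.97 CPM (mean and SD, n = 5 and 4). Timp2 fell by 2.28 ± 0.24 SE, from 1152 ± 275 to 232 ± 29.8 CPM. No range overlapped for any of the 8, against 48.6% of all genes in either direction. In 5xFAD iPKR against 5xFAD TRAP 8 of 8 fell, beside 23% of all genes, with log2 fold changes from -1.96 ± 0.25 SE for Timp2 to -3.52 ± 0.69 SE for Cd52, and the ranges of 8 of 8 stood apart, against 42% of all genes.

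Homeostatic microglial markers fell with them: 16 of 16 in both comparisons, beside 25.4% and 23% of all genes, with medians of -4.37 and -2.89. Neuron markers rose, 8 of 8 in both, beside 28.6% and 25% of all genes. So did 6 of 7 astrocyte markers (1 fell in the first comparison) and 4 of 4 precursor markers in both, and 5 and 8 of 8 oligodendrocyte markers. On the ratio to the homeostatic markers the order of the genes changed. Cd68 was at 1.09 to 1.36 per 100 marker counts in iPKR vehicle and at 1.18 to 1.37 in TRAP, and Cd9, Cd52, Lgals3, Lyz2 and Capg overlapped between these groups as well. Cd63 stood at 2.05 to 3.35 against 0.759 to 1.11, and Timp2 at 6.08 to 15.3 against 2.18 to 2.79, both apart and higher. On this ratio 79.3% of all genes stood apart and higher, which Cd63 and Timp2 shared and the other 6 did not. With size factors from the markers, Cd63 (1.74, adjusted p = 2.354e-06) and Timp2 (2.13, adjusted p = 8.17e-05) were called higher, beside 91.2% of all genes and a median of 4.54 over all genes, and the other 6 had estimates from -0.35 to 0.71. With the same factors 0 of 8 were called in 5xFAD iPKR against 5xFAD TRAP, beside 82.5% of all genes called higher. Construct, VEGF and vehicle differ together between iPKR vehicle and TRAP and cannot be told apart, and the part that RNA of other cell types had in these values was not tested.

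Related genes were counted from lists chosen with earlier results known. Of 10 other genes of the lysosome and phagosome membrane, 2 rose in 5xFAD TRAP against TRAP, 6 in 5xFAD Eif2A against Eif2A and 5 in 5xFAD iPKR against iPKR ASV, and 0 fell. Lamp2, which lines the lysosome, rose on all 3 backgrounds, by 1.09 ± 0.22 SE (adjusted p = 0.007485), 1.32 ± 0.24 SE and 1.39 ± 0.22 SE. Gpnmb, a transmembrane glycoprotein of phagosomes, rose by 4.26 ± 0.97 SE (adjusted p = 0.02555), 4.30 ± 1.06 SE and 4.17 ± 1.05 SE, and its level in TRAP was 6.04 ± 6.75 CPM (SD, n = 5). Lamp1 and Scarb2 rose in the Eif2A pair (1.15 ± 0.22 SE and 1.04 ± 0.23 SE) and in the iPKR pair (1.19 ± 0.20 SE and 1.24 ± 0.21 SE). The NADPH oxidase subunit Cybb rose by 3.30 ± 0.70 SE and the proton pump subunit Atp6v0d2 by 4.42 ± 1.18 SE in the Eif2A pair, and the metal transporter Slc11a1 by 2.41 ± 0.48 SE in the iPKR pair. Rab7, which directs fusion with lysosomes, had 0.12 ± 0.18 SE, 0.39 ± 0.20 SE and 0.20 ± 0.18 SE and was not called.

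Among the other tetraspanins none of 10 was called in the plain tag pair or the Eif2A pair, with medians of 0.12 and 0.32. In the iPKR pair Cd81 (0.99 ± 0.22 SE) and Cd37 (1.63 ± 0.36 SE) rose, with a median of 0.56. Cd81, at 2513 ± 407 CPM in TRAP (SD, n = 5), had 0.84 ± 0.24 SE in the Eif2A pair (adjusted p = 0.05238).

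Lgals3bp, a secreted partner of galectin-3 that is not itself a galectin, rose by 1.91 ± 0.31 SE (adjusted p = 0.0008257), 2.98 ± 0.34 SE (adjusted p = 3.485e-06) and 2.22 ± 0.31 SE on the 3 backgrounds. It was also the 1 gene among the 5 of its list called in iPKR ASV against vehicle (1.51 ± 0.33 SE, adjusted p = 0.04273). Of the galectins Lgals1, Lgals4, Lgals8 and Lgals9, only Lgals8 was called, in the iPKR pair (0.73 ± 0.18 SE). Lgals9, at 679 ± 191 CPM in TRAP (SD, n = 5), had -0.26 ± 0.36 SE, 0.09 ± 0.38 SE and 0.61 ± 0.35 SE.

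Of 7 metalloproteinases, sheddases and inhibitors tested beside Timp2, 0 were called in the 3 5xFAD comparisons; Timp1, Timp3 and Timp4 were not analysed here. The elastase Mmp12 had 3.15 ± 0.87 SE (adjusted p = 0.1085) and 3.11 ± 0.94 SE (adjusted p = 0.07079) in the plain tag and Eif2A pairs, from 1.66 ± 0.58 CPM in TRAP (SD, n = 5). Among 9 genes of the gelsolin family and of actin capping protein tested beside Capg, 0 were called, and gelsolin (Gsn) had 1.40 ± 0.43 SE (adjusted p = 0.1541) in the plain tag pair. The capping subunit Capzb, at 1719 ± 110.3 CPM in TRAP (SD, n = 5), had 0.15 ± 0.18 SE there. Lyz1 was not called either (1.52 ± 0.91 SE, adjusted p = 0.589).

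With size factors from microglial markers the calls in these lists dropped to Lgals3bp in the Eif2A pair and to Slc11a1 and Gpnmb (higher) and Tspan14 (lower) in the iPKR pair. In iPKR vehicle against TRAP 30 of 42 listed genes fell with TMM factors, beside 25.4% of all genes, and 32 of 42 were called higher with marker factors, beside 91.2% of all genes. The genes that fell under TMM factors were 8 of 10 membrane genes (Lamp5 rose), 7 of 10 tetraspanins (Tspan7 rose), 4 of 5 on the galectin list, Lyz1, 5 of 7 metalloproteinases and inhibitors, and 5 of 9 on the gelsolin and capping list, where Gsn and Vil1 rose. With marker factors the counts called higher were, in the same order, 6 of 10, 8 of 10, 4 of 5, 0 of 1, 5 of 7 and 9 of 9. Lamp5 rose by 2.40 ± 0.51 SE and Tspan7 by 0.89 ± 0.28 SE under TMM factors.

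**Figure D4:**
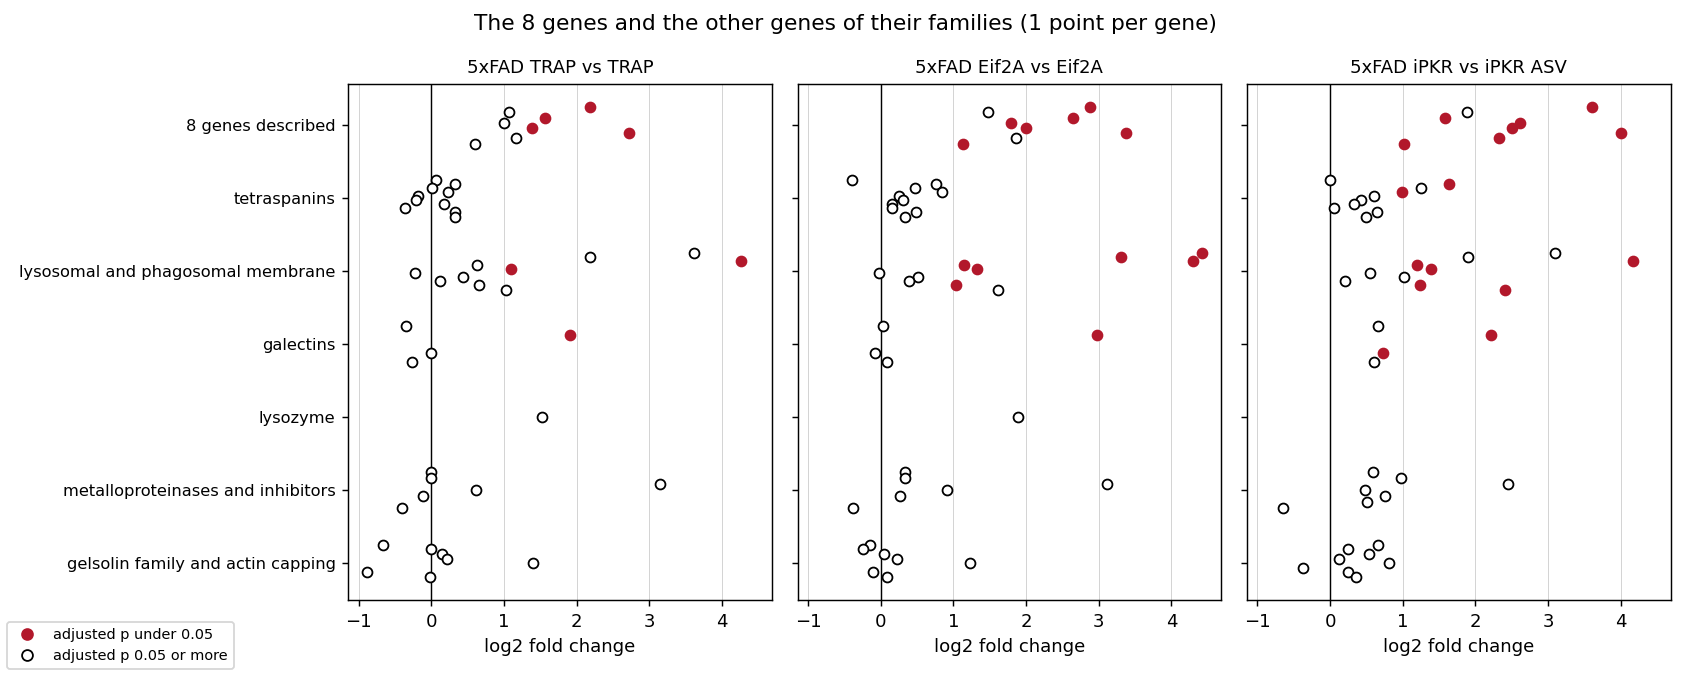
Log2 fold change (horizontal axis) of the 8 genes and of the other genes of 6 lists in the 3 5xFAD comparisons, 1 point per gene, with red points for an adjusted p under 0.05 and listed genes under 1 CPM in both groups left out. The 8 genes and several membrane genes lie to the right, while most tetraspanins, galectins, metalloproteinases and capping genes lie near 0.

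Divided by exon length, the 8 genes covered a wide range of levels in TRAP (CPM per kilobase of exon, not TMM-scaled, mean and SD, n = 5). Lyz2 was first at 1020 ± 364, followed by Cd9 at 501 ± 92.6, Cd68 at 409 ± 53.4, Cd52 at 286 ± 129, Timp2 at 272 ± 57.7, Cd63 at 95.9 ± 30.8, Capg at 31.3 ± 11.7 and Lgals3 at 8.92 ± 3.93. Cd9, Cd68, Cd52 and Timp2 overlapped with their neighbours in this order, whereas Lyz2, Cd63, Capg and Lgals3 were apart from the next gene in every TRAP library. Lyz2 was first and Lgals3 last in all 7 groups. Timp2 moved from the fifth place in TRAP to the second in iPKR vehicle, at 72.9 ± 11.8 (n = 4), where Lyz2 was at 76.3 ± 34.3 and overlapped with it.

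Over all 29 libraries the 28 pairs had Pearson correlations of log2 CPM from 0.85 to 0.99, with a median of 0.93, and over the 16 libraries without the construct from 0.75 (Cd52 and Lyz2) to 0.99, with a median of 0.92. These libraries share the groups, and after each group's mean was removed the 28 values ran from -0.04 to 0.82 with a median of 0.39. Cd68, Cd63, Cd9, Lyz2 and Timp2 kept 0.51 to 0.82 with each other, while Capg had 0.00 with Lyz2 and -0.01 with Lgals3. The 3 genes most like each member over the 16 libraries were taken from those with a mean log2 CPM of at least 4 (8099 genes for Cd68). Several were cathepsins (Ctsa, Ctsb, Ctsz), proteases of the lysosome. Cd68 was most like Ctsz (r = 0.997), Cd9 (0.988) and Ctsa (0.987), and Cd9 was most like Ctsa, Ctsz (both 0.992) and Ctsb (0.991). Cd63 was closest to Cd9 (0.985), Ctsa (0.983) and Ctsz (0.982), and Lyz2 to Ctsa (0.973), Apoe and Tmed3 (both 0.972). Lgals3 had Fabp5 (0.980), Ccl4 (0.973) and Gnas (0.966), Capg had Cadm1 (0.979), Slc37a2 and Cd84 (both 0.969), Timp2 had Sdf4 (0.980), Syngr1 (0.978) and Npc2 (0.974), and Cd52 had Cxcl16 (0.952), Tyrobp (0.944) and Tspo (0.936).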

How the data were processed

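Raw counts per gene symbol were deposited for 29 cortical TRAP libraries, with a second table of RPKM values made by the authors. Per the submitters' processing notes, Trim Galore, HISAT2 2.2.1 and featureCounts 2.0.3 were used on mm10. Which annotation and strand setting were used, and how multimapping reads were counted, is not given in the sources used here. For 86.4% of symbols in GENCODE M21 the length behind the deposited RPKM equals the gene's full span with its introns (within 0.1%).

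Counts were analysed in R 4.3.3 with edgeR 4.0.16: filterByExpr by group (minimum count 10, minimum total 15), TMM factors, and 1 robust quasi-likelihood model of all 29 libraries with group, batch and labelled sex (20 residual degrees of freedom). Two-sided F-tests were adjusted by Benjamini-Hochberg over 16074 genes, with a threshold of 0.05. The procedure was tested on simulated data. Depth was 1.662 to 31.998 M counts a library, and reads carry no molecular identifiers.

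The members, lists and tests were chosen with earlier results of these data known. All 8 members are named everywhere, with the 3 genes most like each (mean log2 CPM of at least 4), the called genes of 6 family lists and up to 3 others of each. Alternatives were RLE factors, no low-count filter, DESeq2 1.42.0, limma 3.58.1 (limma-trend) on the RPKM table with pseudocounts, batch 1 alone, only the groups compared, no sex or batch term, a replicate block, each library left out, and the 3 libraries richest in neuron markers left out. Size factors from microglial markers and sex from Y-linked reads were added after seeing the data: these reads differed from the labelled sex in 8 of 29 libraries.

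Same-numbered libraries deviated together with every correlation above 0.1 only between 5xFAD iPKR and 5xFAD TRAP (0.11 to 0.22 in 4 pairs). There the labelled batch follows the number, and 1 of the 4 correlated best with its own number. Between 5xFAD Eif2A and Eif2A the values were 0.04 to 0.11, and 3 of 3 correlated best with their own number. Labelled sex follows the number in those 3 pairs. Promoters are RefSeq sequences of GRCm38.p6 and gene positions are those of GENCODE M21.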

Additional observations from a re-analysis of the deposited data

Results flagged for a closer look

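Of 48 sets of 1 gene in 1 group with 4 or 5 libraries, 1 held a library far from the rest, where chance flags about 1 in 20. In iPKR ASV, Capg had no count in replicate 2, and its nearest neighbour was replicate 3 at 3.83 CPM. The gap on the log scale was 0.722 of the range of the group. Cd68 (35.1 CPM) and Cd9 (65.7 CPM) in the same library lay among the other iPKR ASV libraries.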

How the results depend on the processing

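Counts of the 8 genes called are given for each comparison. In 5xFAD TRAP against TRAP (4 of 8) the count was 7 in a fit of these 2 groups alone and 7 without the 3 libraries rich in neuron markers (iPKR ASV replicate 3, 5xFAD iPKR replicates 1 and 2). It was 2 with no low-count filter, 2 without the sex term, 1 with sex from Y-linked reads, 1 with marker size factors, and 1, 0 and 2 by limma-trend on log2(RPKM + 0.1), + 0.01 and + 1. With a replicate block it was 0, and leaving out 1 library gave 0 to 4. In 5xFAD iPKR against iPKR ASV (7 of 8) it was 2 in batch 1 alone and 0 in a fit of the 2 groups alone. It was 4 by limma-trend with 0.1 and 4 with 0.01, beside 0.865% and 0.678% of all genes higher. With 1 library left out it was 4 to 8, beside 1.02% to 2.84%. The replicate block gave 5, beside 0.765%. Timp2 changed sign in this pair to -0.59 with marker factors and was not called. In 5xFAD Eif2A against 5xFAD TRAP (0 of 8) the 2 groups alone gave 4. For the difference of 5xFAD effects between Eif2A and TRAP (0 of 8) the groups alone gave 1 (Cd63), beside 0.167% of all genes higher. For that between iPKR and TRAP (0 of 8) leaving out the 3 libraries gave 2 and leaving out 1 library 0 to 1.

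With marker factors iPKR vehicle against TRAP gave 2 in place of 8. Log2 fold changes turned positive, to 1.74 for Cd63 and 2.13 for Timp2, which were called. Those of Cd9 (0.04), Lgals3 (0.5) and Capg (0.71) changed sign without being called. In 5xFAD iPKR against 5xFAD TRAP marker factors gave 0 in place of 8, with 0.24 for Cd68, 0.22 for Cd63, 0.1 for Cd9, 0.54 for Lgals3, 0.88 for Timp2 and 0.02 for Capg. The cause of these changes was not tested. Fits of 2 groups and fits without some libraries hold fewer samples, yet in 5xFAD TRAP against TRAP some of them gave more calls. In 5xFAD Eif2A against Eif2A the count stayed between 4 and 8 under all settings run, beside 0.218% to 7.89% of all genes higher. RLE factors and DESeq2 kept every count within 1.5 times. The replicate block left the count at 6 in 5xFAD Eif2A against Eif2A, beside 1.6% of all genes higher. It stayed at 8 in both comparisons of iPKR with the plain tag, beside 48% and 45.2% of all genes called in either direction. Apart from 5xFAD iPKR against iPKR ASV, given above, it was 0 in the other comparisons. Same-numbered libraries of these other pairs share a number and, for some, the labelled batch and sex. Low counts limit Lgals3 and Capg in the iPKR groups without 5xFAD, where iPKR ASV libraries held 4 to 29 counts of Lgals3 and 1 held 0 of Capg.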
